A study of Mus musculus with 42 samples.

Results

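The genes described here are 10 hormone, granin and related genes of the enteroendocrine lineage, Chga, Chgb, Neurod1, Pyy, Gcg, Sct, Tph1, Cck, Insl5 and Sst, of 19232 genes with a named row in the series. They were chosen by name as textbook markers of the lineage and not by a measured value, though earlier results of these data were known. Their rows were read in 12 tables of RNA-seq values from mouse colon, each of which compares a knockout or a cytokine with its control. Epithelial Muc2-mCherry+ cells came from proximal and distal colon in 3 kinds of mice, with 2 libraries per group and 12 in all. GWTM2 mice carry Gli1-CreERT2 and keep both target genes, GS4M2 mice also carry Smad4-loxp, and GA3M2 mice also carry Alk3-loxp, where Alk3 is listed as Bmpr1a. All 3 kinds received tamoxifen on 5 consecutive days and were labelled Day 30, and the methods give mice of both sexes aged 2 to 4 months. Gli1-tdTomato+ stromal cells were sorted from mice of the same design (GWTT, GS4T and GA3T, 12 libraries). Wild-type colonic organoids, which the methods describe as distal, were left untreated or received 10 nM IL-1α with IL-1β (IL-1 below) or 10 nM IL-17A for 12 h or 72 h, with 3 libraries per group and 18 in all. All organoids grew in a medium with EGF, Noggin, R-spondin1, Wnt3a-conditioned medium and CHIR, and Noggin is itself a BMP antagonist.

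Enteroendocrine cells are rare hormone-secreting cells of the gut epithelium that arise from the same crypt stem cells as goblet cells and colonocytes. They store peptides in dense-core granules, to whose formation the granins contribute, and they are sorted into types by what they release. In the colon the best known types are the L cell, which makes PYY, proglucagon peptides and often INSL5, the enterochromaffin cell, which makes serotonin through TPH1, and the D cell, which makes somatostatin.

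The recombinase is expressed in Gli1+ stromal cells, so the sorted Muc2-mCherry+ cells are not those in which Smad4 or Alk3 is deleted. In proximal stromal cells Smad4 was 1604 and 1673 normalized counts in GWTT libraries and 705 and 835 in GS4T libraries, and Bmpr1a was 2960 and 3220 in GWTT and 2233 and 1842 in GA3T libraries. The Muc2-mCherry+ libraries carried their goblet label, with a summed level of 10 goblet markers between 13541 and 64102 counts per 1000000 reads (CPM). Of 8 colonocyte markers the summed level was 616 to 7446 CPM, and the 10 enteroendocrine genes together held 19.6 to 116 CPM, so they are a minor signal in a goblet cell sort. Libraries held 14222902 to 23686940 reads on named genes. GWTM2 replicate 1 in both segments had no read of 4 chromosome Y genes and over 1190 CPM of Xist. The other 10 Muc2-mCherry+ libraries had the Y genes, so sex was not balanced between genotypes. Of the stromal libraries, proximal GWTT replicate 1 and GA3T replicate 1 in both segments had the Y genes and 0.168 to 0.428 CPM of Xist. The others held 998 to 1649 CPM of Xist, so sex was not balanced in the proximal GS4T and distal GA3T comparisons. The GWTM2 libraries are the controls of both knockouts. In the organoids the 12 h control replicates 2 and 4 hold the same reads as the 72 h control replicates 1 and 4. The 18 libraries are thus 16 distinct ones, and every comparison between times rests on shared controls. The 72 h control replicate 2 was also close to the 12 h control replicate 4 (chi-square per degree of freedom 3.44). So each 72 h control equals or nearly equals a 12 h control, and the hour at which these libraries were taken cannot be told. The part of culture time in the 72 h comparisons was not tested. Control 72 h replicates 2 and 4 and the replicates 3 and 4 of IL-1 and of IL-17A at 12 h were also closer to each other than other organoid pairs of a group (chi-square per degree of freedom 3.12 to 3.46, against 28.1 to 232), beyond sampling noise. The labels do not say which libraries came from separate mice or cultures, so p-values measure the spread between libraries. That spread may be technical, except where replicates of a group differed in sex and so came from different mice (GWTM2, proximal GWTT and GA3T).

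Promoter sequence was read from RefSeq (GRCm38.p6) for all 10 genes, to see whether those that moved together share a short element. The cyclic AMP response element TGACGTCA, a palindrome read on both strands, stood within the 250 bases before a start in 508 of 32851 promoters (1.55%) and for 2 of the 10 genes, Chgb and Sst. The shorter form TGACG, which lies inside it, was found in 17.8% of all promoters and for 5 of the 10 genes (Cck, Chga, Chgb, Sst and Tph1), and the E-box CANNTG in 66.2% of all promoters and for 9 of the 10 genes, all but Tph1. The 2 windows with the full element are shown with the element in capitals, 5′ to 3′ on the strand of the gene, for Chgb at chr2:132781560-132781587 (plus strand, first base of the element 72 bases before the start) and for Sst at chr16:23890875-23890902 (minus strand, 48 bases before).
Chgb: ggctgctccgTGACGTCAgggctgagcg
Sst: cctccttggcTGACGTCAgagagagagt
Both windows overlap an exon of the same gene in GENCODE, whose gene start lies further upstream than the RefSeq start used here. These matches are letters in a window and say nothing about binding in these cells.

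Rows for the genes were not equally complete, and the rule by which a table leaves out a gene is not given in the sources used here. All 10 had a row in both proximal Muc2-mCherry+ tables, while Neurod1 had none in the distal tables and Cck none in the distal GS4M2 table. In organoids 10 had a row in 3 tables and 9 in the 12 h IL-17A table, where Sct had none. Sct was 0.521 to 4.23 CPM in the 12 h controls, while the lowest row mean of that table was 1.79 normalized counts. A missing row thus need not mean a low level. A gene was tested where its mean was at least 10 normalized counts over a table, which 8 to 10 genes met in the tables of sorted Muc2-mCherry+ cells and of organoids.

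Per kilobase of exon, the 2 systems ranked the genes differently. In proximal GWTM2 cells the highest mean levels, in CPM per kilobase, were Chgb at 16.2 and Sct, the hormone secretin, at 15.3, and they were followed by Chga at 7.63, Gcg at 7.10 and Pyy at 5.47. In distal GWTM2 cells Pyy led with 5.40, followed by Chgb at 2.98, Sct at 2.21 and Gcg at 1.95. In control organoids at 72 h Pyy was 67.7, Insl5 47.3 and Chgb 43.4, while Sct was 2.77 and Sst 0.456. These levels have 2 or 3 libraries each, neighbours in the order such as Chgb and Sct in proximal GWTM2 cells were not tested against each other, and the sort and the culture are different preparations.

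**Figure D1:**
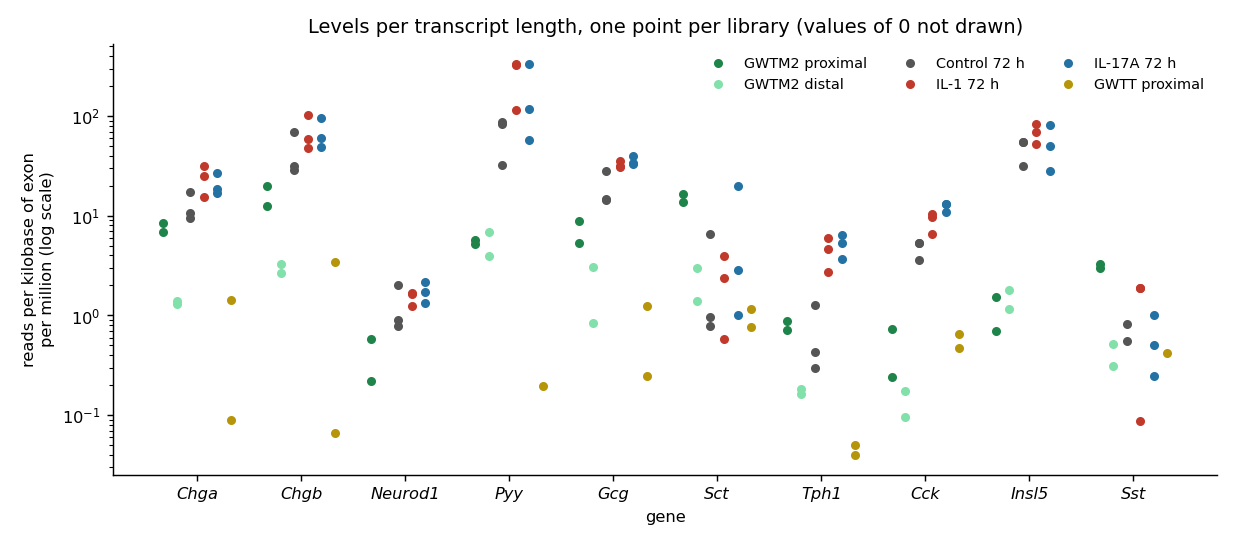
Level of each gene in CPM per kilobase of exon (log axis), with each library as a point, for GWTM2 cells, 72 h organoids and proximal GWTT stromal cells, values of 0 not drawn. By group means Chgb and Sct lead in proximal GWTM2 cells (16.2 and 15.3), Pyy leads in distal GWTM2 cells (5.40), and Pyy, Insl5 and Chgb lead in control organoids at 72 h (67.7, 47.3 and 43.4).

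The first comparison set the proximal against the distal colon in sorted Muc2-mCherry+ cells. As a mean over the 3 genotypes, 6 of 8 genes tested were called higher in the proximal colon and 1 lower, where a call takes a limma p that stays under 0.05 after Benjamini-Hochberg adjustment together with a log2 fold change of 1 or more in either direction. Of all genes tested, 2.93% were called higher and 1.77% lower (4.7% in all). The median log2 fold change was 1.59 over the 8 genes and -0.00477 over all genes. In these bulk libraries a smaller share of enteroendocrine cells and less RNA per enteroendocrine cell cannot be told apart.

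**Figure D2:**
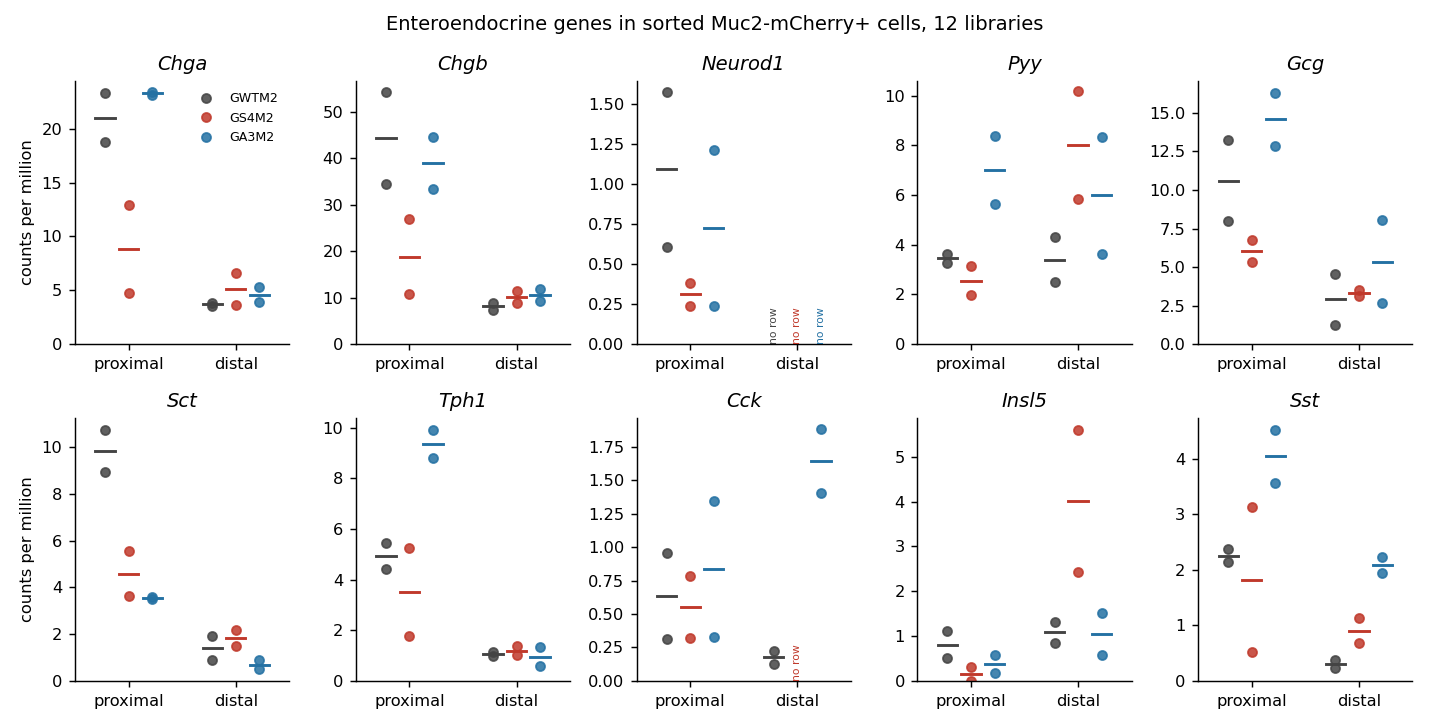
Level of each gene in CPM (linear axis from 0, scaled for each gene) in the 12 Muc2-mCherry+ libraries, by genotype and segment, with each library as a point and a bar at the mean. Chga was 23.3 and 18.8 CPM in proximal and 3.57 and 3.82 CPM in distal GWTM2 libraries, and Insl5 ran the other way in GS4M2 libraries (0.32 and 0 against 2.42 and 5.59 CPM).

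Chga encodes chromogranin A, the general marker of endocrine granules. It was 23.3 and 18.8 CPM in the proximal and 3.57 and 3.82 CPM in the distal GWTM2 libraries, 23.4 and 23.1 against 3.87 and 5.28 CPM in GA3M2, and 4.79 and 12.9 against 3.66 and 6.59 CPM in GS4M2. The segments did not overlap in GWTM2 and GA3M2 cells and overlapped in GS4M2 cells, and the mean log2 fold change was 1.83 (SE 0.24, adjusted p = 0.00107, limma). Chgb, the second granin, was 54.3 and 34.5 against 8.95 and 7.38 CPM in GWTM2, 44.6 and 33.4 against 9.22 and 11.8 CPM in GA3M2, and 10.8 and 26.9 against 8.79 and 11.5 CPM in GS4M2. It followed the same order, with overlap only in GS4M2 cells, and its log2 fold change was 1.68 (SE 0.23, adjusted p = 0.00111, limma). Neurod1, a basic helix-loop-helix factor of endocrine differentiation, was low in every proximal library (0.24 to 1.57 CPM) and could not be compared.

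Sct was 10.7 and 8.94 CPM in proximal against 0.91 and 1.94 CPM in distal GWTM2 libraries, 3.64 and 5.54 against 2.20 and 1.48 CPM in GS4M2, and 3.58 and 3.51 against 0.51 and 0.88 CPM in GA3M2. All 6 proximal libraries lay above all 6 distal ones, with a log2 fold change of 2.10 (SE 0.24, adjusted p = 0.00042, limma). Tph1, the rate-limiting enzyme of serotonin synthesis outside the nervous system, was 5.45 and 4.41 against 1.13 and 1.00 CPM in GWTM2, 1.79 and 5.24 against 1.01 and 1.37 CPM in GS4M2, and 9.92 and 8.81 against 0.57 and 1.35 CPM in GA3M2. It too did not overlap over 6 against 6 libraries, and its log2 fold change was 2.22 (SE 0.29, adjusted p = 0.000968, limma). Of all genes tested, 2.5% had every proximal library above every distal one.

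Gcg, which encodes proglucagon, the precursor of GLP-1, was 13.2 and 8.0 against 1.25 and 4.57 CPM in GWTM2, 12.8 and 16.3 against 2.68 and 8.03 CPM in GA3M2, and 5.30 and 6.74 against 3.16 and 3.53 CPM in GS4M2. The segments did not overlap within any of the 3 genotypes, with a log2 fold change of 1.50 (SE 0.34, adjusted p = 0.0176, limma). Sst, the inhibitory peptide somatostatin, was 2.37 and 2.14 against 0.23 and 0.38 CPM in GWTM2, 4.52 and 3.56 against 1.94 and 2.23 CPM in GA3M2, and 0.51 and 3.13 against 1.13 and 0.69 CPM in GS4M2. Its segments overlapped in GS4M2 cells, and its log2 fold change of 1.34 (SE 0.38, adjusted p = 0.0417, limma) was no longer called without any 1 of 10 of the 12 libraries (adjusted p = 0.0522 to 0.109), only GWTM2 distal replicate 2 and GS4M2 proximal replicate 1 being without effect on the call. The call of Gcg was lost without GWTM2 proximal replicate 1, GS4M2 distal replicate 1 or GS4M2 proximal replicate 2 (adjusted p = 0.0501 to 0.0538).

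The 2 other L cell hormones did not share this direction. Insl5, a relaxin-family peptide, was 0.32 and 0 CPM in proximal and 2.42 and 5.59 CPM in distal GS4M2 libraries, 0.17 and 0.58 against 0.57 and 1.52 CPM in GA3M2, and 1.11 and 0.50 against 0.85 and 1.31 CPM in GWTM2. It was called lower in the proximal colon over the 3 genotypes, by a log2 fold change of -1.98 (SE 0.47, adjusted p = 0.0199, limma), while the segments overlapped in GWTM2 and GA3M2 cells. A library at 0 allows 3 reads, here 0.181 CPM, and on log2(CPM + 1) in place of log2(CPM + 0.1) the change was -0.94, under the fold threshold, as was that of Sst at 0.81. The call of Insl5 was also lost without GA3M2 distal replicate 2, GWTM2 proximal replicate 2 or GS4M2 distal replicate 2 (adjusted p = 0.0565 to 0.0651). Pyy, an inhibitor of gut motility and appetite, was 3.63 and 3.27 against 2.49 and 4.32 CPM in GWTM2, 5.62 and 8.37 against 3.64 and 8.33 CPM in GA3M2, and 1.98 and 3.13 against 5.86 and 10.2 CPM in GS4M2. It was not called (adjusted p = 0.365, limma), and proximal libraries lay below distal ones only in GS4M2 cells.

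Within GWTM2 cells alone, 3 of 8 genes were called, all higher in the proximal colon (0.949% of all genes were called higher, 1.53% in all). They were Chga at 2.47 on the log2 scale (adjusted p = 0.0208), Chgb at 2.40 (adjusted p = 0.0154) and Sct at 2.79 (adjusted p = 0.0104, limma). None of them was called without GWTM2 proximal replicate 1 or 2. The call of Chga was also lost without GWTM2 distal replicate 1 (2.42), and that of Chgb without GWTM2 distal replicate 2 (2.26). Gcg (2.05, adjusted p = 0.144), Tph1 (2.10, adjusted p = 0.075) and Sst (2.58, adjusted p = 0.0886) did not overlap either but were not called, and 26% of all genes lay higher in this way.

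Other genes of the lineage were read in the same fit. Of 4 tested nutrient and signal sensors 1 was called, Abcc8, a subunit of the ATP-sensitive potassium channel, which was higher in the proximal colon (log2 fold change 2.19, adjusted p = 0.00042, limma). Of 8 granule, processing and amine genes, Pcsk1, the prohormone convertase, was higher (1.08, adjusted p = 0.00502) and Ddc, the decarboxylase that makes serotonin and dopamine, was lower (-1.24, adjusted p = 0.00238). None of 5 transcription factors and none of 2 other peptides was called in limma. In this sort leading genes of these lists by mean CPM, not corrected for length, were Ptprn2 (201 CPM), Ffar4 (123 CPM), Ffar2 (84.9 CPM), Foxa2 (59.8 CPM), Pam (54.9 CPM), Pcsk1 (52.0 CPM), Abcc8 (12.4 CPM), Rfx3 (9.81 CPM), Tac1 (4.44 CPM) and Ghrl (0.598 CPM), several of which other epithelial cells also express. Markers of other cells moved with the segment too. Of 8 colonocyte markers Car1 (3.09) and Guca2a (1.28) were called higher and Aqp8 (-2.22) lower in the proximal colon on the log2 scale, with a summed level of 3442 to 7446 CPM in proximal and 616 to 3112 CPM in distal GWTM2 libraries. Of 10 goblet markers Clca1 (-1.65), Fcgbp (-1.43) and Zg16 (-1.11) were called lower, with 33107 to 35164 CPM in proximal and 37798 to 64102 CPM in distal GWTM2 libraries. Their part in the result was not tested.

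The second question was whether deleting Smad4 or Alk3 in Gli1+ stromal cells changed these genes in the neighbouring epithelium. In proximal GS4M2 cells all 9 genes tested were lower in mean than in GWTM2 cells, with a change of sign under an alternative for 3 of them (Cck, Sst and Tph1), by a median log2 fold change of -0.81 against -0.00184 over all genes, but none was called in limma (0.325% of all genes were called). By the unadjusted p (under 0.05, with the fold threshold kept) 3 of the 9 and 4.28% of all genes were called, with edgeR 0 of the 9 and with DESeq2 1 (2.04% of all genes). For 6 of the 9 both GS4M2 libraries lay below both GWTM2 libraries, as did 25.2% of all genes tested.

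Chga was 78.8 and 218 normalized counts in the GS4M2 libraries and 397 and 322 in the GWTM2 libraries. Both knockout libraries were below both controls but far from each other, and the log2 fold change was -1.44 (SE 0.45, adjusted p = 0.204, limma). Chgb was 178 and 455 against 924 and 590 normalized counts, a log2 fold change of -1.37 (SE 0.44, adjusted p = 0.214, limma). Sct was 59.9 and 93.6 against 183 and 153 normalized counts, with a log2 fold change of -1.15 (SE 0.28, adjusted p = 0.146, limma), and DESeq2 called it (-1.13, adjusted p = 0.0443).

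Neurod1 was 6.31 and 4.07 against 10.3 and 27.0 normalized counts (-1.55, SE 0.66, adjusted p = 0.315, limma), values of a few reads. Gcg was 87.2 and 114 against 225 and 137 (-0.81, SE 0.30, adjusted p = 0.259, limma) and Pyy 32.6 and 52.9 against 61.8 and 56.1 normalized counts (-0.49, SE 0.34, adjusted p = 0.506, limma). These 3 groups did not overlap. Tph1 was 29.4 and 88.6 against 92.7 and 75.6 normalized counts and Sst 8.41 and 52.9 against 40.3 and 36.7, and both overlapped because GS4M2 replicate 2 reached the controls. GS4M2 replicate 1 was the lower of the 2 knockout libraries for 8 of the 10 genes. Cck, the peptide cholecystokinin, was 5.26 and 13.2 against 16.3 and 5.40 normalized counts, and Insl5, below the filter, was 5.26 and 0 against 18.9 and 8.64.

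The direction of this comparison rests on the column names. In another listing of these values by the study the headings of the proximal GS4M2 and GWTM2 columns are the other way round, and under those headings each fold change above would change sign. Under the deposited names, used here, the GWTM2 columns hold the same reads as the GWTM2 columns of the proximal GA3M2 table, in 13134 of 13134 genes compared. The 8 colonocyte markers summed to 1390 to 2252 CPM in the GS4M2 libraries against 3442 to 7446 CPM in the GWTM2 libraries, with 6 of the 8 lower in mean and none called in limma. The 10 goblet markers summed to 43558 to 45316 against 33107 to 35164 CPM. The part of these cells in the result was not tested.

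In distal GS4M2 cells all 8 genes tested were higher in mean than in GWTM2 cells, with a change of sign under an alternative for 4 of them (Chga, Gcg, Sct and Tph1), and again none was called in limma (0% of all genes), with 2 at an unadjusted p under 0.05 (2.7% of all genes) and 0 with edgeR and with DESeq2. Insl5 was 40.8 and 97.4 normalized counts in GS4M2 and 15.1 and 23.8 in GWTM2 libraries, a log2 fold change of 1.69 (SE 0.55, adjusted p = 0.440, limma). Pyy was 98.7 and 177 against 44.2 and 78.1 normalized counts (1.16, SE 0.44, adjusted p = 0.466, limma), and Sst 19.0 and 11.9 against 4.01 and 6.79 (1.36, SE 0.60, adjusted p = 0.487, limma). For these 3 genes both GS4M2 libraries were above both controls, as for 23.1% of all genes. Chga, at 61.7 and 115 against 63.2 and 69.1 normalized counts, and Chgb, at 148 and 201 against 158 and 134, overlapped, as did Gcg, Sct and Tph1.

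In proximal GA3M2 cells none of 10 genes was called in limma (0.0899% of all genes were called), with 2 at an unadjusted p under 0.05 (6.83% of all genes), 0 with edgeR and 1 with DESeq2 (3.23% of all genes). Sct was 65.4 and 67.3 normalized counts in GA3M2 and 195 and 162 in GWTM2 libraries, and the low and close knockout values gave a log2 fold change of -1.41 (SE 0.27, adjusted p = 0.152, limma), which DESeq2 called (-1.43, adjusted p = 0.0112). Tph1 went the other way, at 181 and 169 against 98.7 and 79.9 normalized counts (0.97, SE 0.27, adjusted p = 0.238, limma). Pyy was 103 and 161 against 65.8 and 59.3 (1.03, SE 0.34, adjusted p = 0.263, limma) and Sst 82.5 and 68.3 against 43.0 and 38.8 normalized counts (0.86, SE 0.34, adjusted p = 0.314, limma). Chga, at 428 and 444 against 422 and 340 normalized counts, also lay above both controls, by 0.20 (SE 0.21, adjusted p = 0.636, limma). So 4 genes lay above both controls and 1 below, where 26% of all genes were above and 26.1% below. Chgb overlapped at 815 and 641 against 984 and 624 normalized counts, as did Gcg, Neurod1, Cck and Insl5.

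These GA3M2 libraries differed from their controls in markers of other cells. Muc2 was 18753 and 14042 against 179572 and 224217 normalized counts (log2 fold change -3.63, adjusted p = 0.0464, limma), although the cells were sorted for the Muc2 reporter, and the goblet list summed to 13541 to 17389 against 33107 to 35164 CPM. Lyz2 was 305 and 495 normalized counts in GA3M2 libraries and 0 in both controls, while the other macrophage markers were not called. The 6 stromal markers summed to 8.05 to 29.8 against 2.12 to 2.71 CPM, with 5 of 5 tested higher in mean and none called in limma. Their part in the result was not tested.

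In distal GA3M2 cells Cck and Sst stood out in size, though none of 9 genes was called in limma (0% of all genes), with 2 at an unadjusted p under 0.05 (4.12% of all genes) and 0 with edgeR and with DESeq2. Cck was 32.3 and 23.0 normalized counts in GA3M2 libraries and 3.84 and 2.18 in GWTM2 libraries, a log2 fold change of 2.85 (SE 0.66, adjusted p = 0.318, limma). Sst was 33.3 and 36.4 against 3.84 and 6.56 normalized counts (2.57, SE 0.57, adjusted p = 0.318, limma). The controls of both genes rest on a few reads. Sct was 8.81 and 14.4 against 15.4 and 33.9 normalized counts (-0.96, SE 0.63, adjusted p = 0.594, limma) and Chgb 158 and 193 against 152 and 129 (0.32, SE 0.25, adjusted p = 0.651, limma). Of the 9 genes 3 lay above and 1 below both controls, as did 22.1% and 22.2% of all genes. Ret was the only enteric neuron marker of 6 with a row. It was 27.7 to 57.2 CPM in these libraries, 2.44 to 8.33 CPM in distal GWTM2 and 5.07 to 7.91 CPM in distal GS4M2 libraries. In the proximal colon it was 14.7 to 16.6 CPM in GA3M2, 10.2 to 17.2 CPM in GS4M2 and 4.91 to 7.21 CPM in GWTM2. The 10 goblet markers summed to 16403 to 26886 CPM in distal GA3M2 against 37798 to 64102 CPM in distal GWTM2 libraries. Lyz2 was 362 and 401 against 5.76 and 0 normalized counts, while the summed macrophage markers overlapped. The part of these cells in the result was not tested.

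Whether the effect of a deletion differed between segments was tested as an interaction on log2(CPM + 0.1) over the 12 libraries. For GS4M2 none of 8 genes was called (0.0153% of all genes), in limma, edgeR or DESeq2, while 6 passed an unadjusted p under 0.05 with the fold threshold, as did 1.98% of all genes. All 6 were negative, which means that the difference of GS4M2 from GWTM2 was lower in proximal than in distal cells. They were Insl5 (-3.77), Sst (-2.06), Chga (-1.80), Pyy (-1.66), Chgb (-1.64) and Sct (-1.52), with adjusted p from 0.928 to 0.998 (limma). For GA3M2 none of 8 was called (0.00765% of all genes), and none passed the unadjusted rule (1.38% of all genes).

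A direct comparison of the 2 knockouts, whose separate comparisons share the same controls, called none of 8 genes in the proximal colon with limma (0.475% of all genes), with 5 at an unadjusted p under 0.05 (6.88% of all genes), 0 with edgeR and 4 with DESeq2 (3.38% of all genes). With same-numbered libraries of the 2 segments paired, 2 of them were called (2.39% of all genes). Chga was 4.79 and 12.9 CPM in GS4M2 and 23.4 and 23.1 CPM in GA3M2 libraries (log2 fold change -1.55, adjusted p = 0.087, limma). Tph1 was 1.79 and 5.24 against 9.92 and 8.81 CPM (-1.57, adjusted p = 0.115, limma) and Pyy 1.98 and 3.13 against 5.62 and 8.37 CPM (-1.42, adjusted p = 0.115, limma). The GS4M2 libraries were the lower pair for these and for Chgb (-1.17), Gcg (-1.26) and Sst (-1.55), while Sct was the lower in GA3M2 (0.33), so that 6 of 8 were lower and 1 higher without overlap, against 21.7% and 31.9% of all genes. In the distal colon none of 8 was called (0.566% of all genes), with 2 at an unadjusted p under 0.05 (4.47% of all genes) and 0 with edgeR and with DESeq2. There Sct (1.30, adjusted p = 0.192) and Insl5 (1.86, adjusted p = 0.344) were higher and Sst (-1.15, adjusted p = 0.467, limma) lower in GS4M2 libraries without overlap, as were 27.4% and 22.7% of all genes. Of the other genes of the lineage, Pcsk1 (-2.24, adjusted p = 0.018) and Sstr2, a somatostatin receptor (-1.87, adjusted p = 0.0427, limma), were lower in distal GS4M2 than in distal GA3M2 cells.

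**Figure D3:**
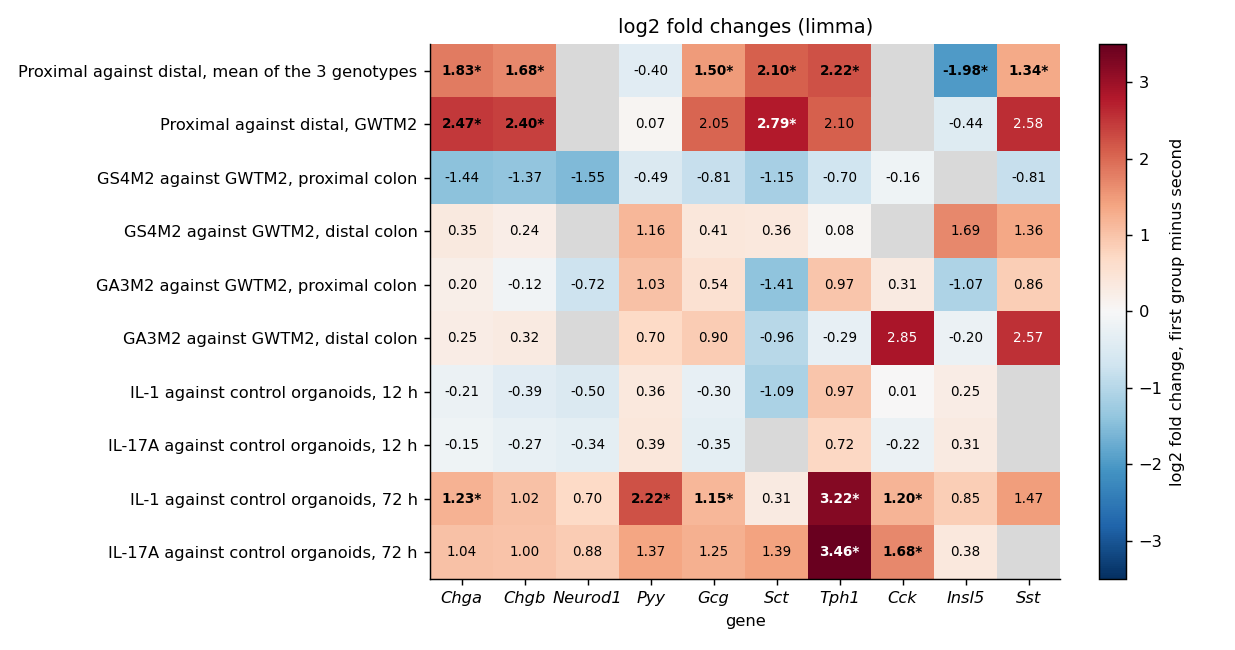
Log2 fold changes of each gene in the limma fits (colour and number) by comparison, with bold type and a star where the gene was called and a grey cell where it was not tested. Calls are found in the segment comparisons and at 72 h in organoids, and the rows of GS4M2 and GA3M2 cells hold none, while at 12 h 7 of 9 genes with IL-1 and 6 of 8 with IL-17A changed sign under an alternative.

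The third question was the response of colonic organoids to IL-1 and to IL-17A. At 12 h none of 9 genes was called with IL-1 (0.0542% of all genes) and none of 8 with IL-17A (0.0385% of all genes), in limma, at the unadjusted p (0.922% and 1.08% of all genes), in edgeR or in DESeq2. With the replicate number as a block 1 gene, Tph1, was called with each cytokine (0.774% and 0.925% of all genes). That fit rests on replicates 1 and 4, the numbers that both groups share. Both calls use the same controls. Replicate 1 of IL-1 and replicate 1 of IL-17A were also close to each other (chi-square per degree of freedom 4.90), so the calls are not independent. For none of the genes was every treated library above or below every control, which held for 5.3% and 4.22% of all genes with IL-1 and for 5.91% and 5.01% with IL-17A. Tph1 was 74.0, 126 and 28.3 normalized counts in controls and 204, 90.7 and 110 with IL-1, and in the table of IL-17A it was 77.7, 132 and 29.6 in controls and 177, 86.0 and 91.1 with IL-17A. Tph1 was higher with the cytokine in replicate 1 and in replicate 4, by log2 fold changes of 1.68 with IL-1 (adjusted p = 6.62e-06) and 1.38 with IL-17A (adjusted p = 1.37e-08, limma with the block), against 0.97 (adjusted p = 0.886) and 0.72 (adjusted p = 0.926, limma) without it, where the groups overlapped. Same-numbered control and cytokine libraries deviated together at 12 h, with correlations of 0.68 to 0.72 across genes. Chga was 908, 768 and 400 normalized counts in the controls (replicates 1, 2 and 4) and 994, 426 and 424 with IL-1 (replicates 1, 3 and 4), so that replicate 1 was high and replicate 4 low in both. Chgb (3027, 3054 and 1227 against 3291, 1233 and 1249 normalized counts) and Gcg (990, 672 and 334 against 886, 346 and 391) showed the same order.

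At 72 h 5 of 10 genes were called higher with IL-1 and none lower (10.9% of all genes were called higher, 23% in all), and 2 of 9 were called higher with IL-17A (5.02% of all genes higher, 7.94% in all). The median log2 fold change of the genes was 1.17 with IL-1 and 1.25 with IL-17A, against -0.000856 and -0.00559 over all genes. The fitted log2 fold change was positive for 9 of 10 genes with IL-1 under every alternative, and for Sct it changed sign, its mean being 26.6 normalized counts with IL-1 and 26.9 in controls. With IL-17A it was positive for all 9 tested, with a change of sign under an alternative for 1, Insl5. The 72 h controls equal or nearly equal 12 h controls, as given above, and the part of culture time in these differences was not tested.

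**Figure D4:**
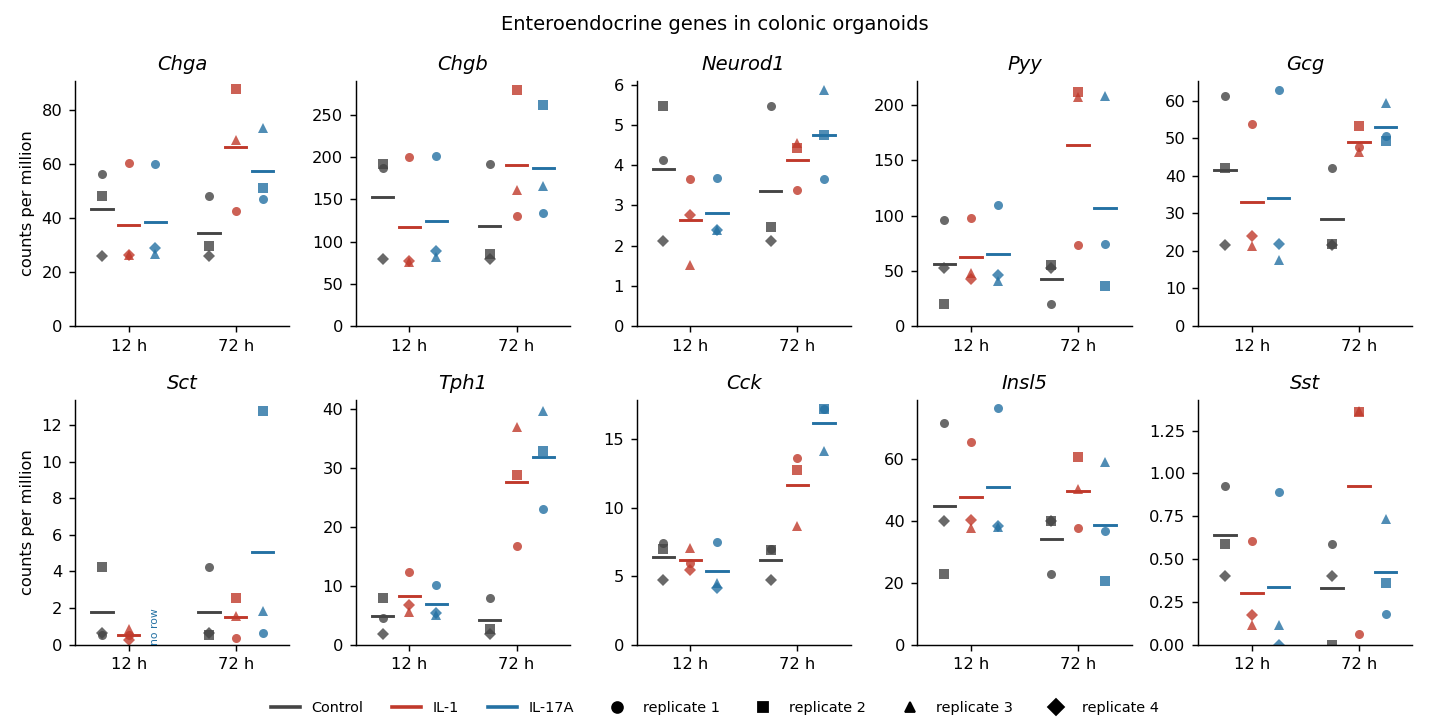
Level of each gene in CPM (linear axis from 0, scaled for each gene) in organoid libraries, by treatment and time, with each library as a point whose shape gives its replicate number and a bar at the mean. Control 12 h replicates 2 and 4 are the same reads as control 72 h replicates 1 and 4, and at 72 h Tph1 lies above all 3 controls in all 6 cytokine libraries.

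Tph1 had the largest change of the 10 genes with either cytokine. It was 120, 40.0 and 27.1 normalized counts in the 72 h controls (replicates 1, 2 and 4) and 324, 485 and 714 with IL-1 (replicates 1, 2 and 3), with a log2 fold change of 3.22 (SE 0.55, adjusted p = 0.00504, limma). In the IL-17A table it was 120, 39.8 and 27.1 in controls and 430, 516 and 818 normalized counts with IL-17A, a log2 fold change of 3.46 (SE 0.56, adjusted p = 0.0349, limma). The controls spread more than 4-fold, and every cytokine library lay above the highest control.

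Cck, made by I cells of the upper gut and low in the sorted colon cells, was 106, 104 and 69.5 normalized counts in controls and 262, 214 and 167 with IL-1 (log2 fold change 1.20, SE 0.28, adjusted p = 0.0145, limma). With IL-17A it was 323, 270 and 291 against 105, 103 and 69.4 normalized counts (1.68, SE 0.26, adjusted p = 0.0334, limma). Neither treatment overlapped the controls.

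Of the L cell hormones, Pyy was 306, 837 and 778 normalized counts in controls and 1412, 3577 and 4002 with IL-1, a log2 fold change of 2.22 (SE 0.49, adjusted p = 0.0117, limma). With IL-17A it was 1391, 574 and 4296 against 305, 833 and 776 normalized counts, and the second IL-17A library lay below 2 of the controls. Gcg was 637, 329 and 321 against 919, 899 and 893 normalized counts with IL-1 (1.15, SE 0.27, adjusted p = 0.0138, limma), and 636, 327 and 320 against 950, 772 and 1223 with IL-17A (1.25, SE 0.32, adjusted p = 0.0505, limma). Both treatments lay above all controls for Gcg. Insl5 was 343, 604 and 591 in controls and 725, 1024 and 969 normalized counts with IL-1, without overlap, and its log2 fold change of 0.85 (adjusted p = 0.0340, limma) stayed under the fold threshold. With IL-17A Insl5 was 688, 320 and 1216 normalized counts, with the second library below every control.

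Chga was 728, 443 and 384 normalized counts in controls and 820, 1474 and 1327 with IL-1 (1.23, SE 0.30, adjusted p = 0.0163, limma), and 727, 441 and 383 against 884, 801 and 1509 with IL-17A (1.04, SE 0.33, adjusted p = 0.0728, limma). Both groups lay above the controls, narrowly so over control replicate 1. Chgb overlapped, at 2895, 1293 and 1177 normalized counts in controls, 2500, 4716 and 3117 with IL-1 and 2501, 4099 and 3417 with IL-17A. Neurod1 overlapped as well, at 82.5, 37.2 and 31.4 against 65.0, 74.7 and 87.8 with IL-1 and 68.3, 74.3 and 121 normalized counts with IL-17A. Sct and Sst were low and uneven, Sct being 63.9, 7.62 and 9.33 normalized counts in controls, 7.22, 42.9 and 29.6 with IL-1 and 12.3, 200.4 and 37.8 with IL-17A. Counting genes with every treated library above every control gives 6 of 10 with IL-1, where 27% of all genes did so, and 4 of 9 with IL-17A, where 21.7% did.

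Control 72 h replicate 1 stood apart from the other 2 controls. It was higher in Chga, Chgb, Neurod1, Gcg, Tph1 and Sct and lower in Pyy and Insl5. IL-17A replicate 2 was also the lowest of its group in Pyy and Insl5 and the highest in Sct and Chgb. Unlike control replicate 1, it was the lowest of its group in Chga and Gcg, and it lay between the others in Tph1 and Neurod1. Single libraries decided several calls. With IL-1 the number called ranged from 2 to 7 when 1 library was left out, Chga and Gcg being lost without control replicate 2 (adjusted p = 0.0563 and 0.0527) or control replicate 4 (0.0579 and 0.0515), Cck without control replicate 4 (0.0608) and Chga without IL-1 replicate 3 (0.0593, limma). With IL-17A the range was 0 to 5, both calls being lost without control replicate 2 (adjusted p = 0.171), control replicate 4 (0.16), IL-17A replicate 1 (0.166) or IL-17A replicate 3 (0.0571 for Tph1 and 0.0542 for Cck), Cck alone without control replicate 1 (0.0503), and 5 being called without IL-17A replicate 2. Control replicates 2 and 4 are one of the near-identical pairs, and with such pairs averaged 3 genes were called with IL-1 (16.9% of all genes) and 0 with IL-17A (0.0153%). With the replicate number as a block, which only 2 numbers allow here, 2 and 0 were called (11.6% and 0.0306% of all genes).

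Other genes of the lineage at 72 h were read from lists of the same kind. Of 19 granule, processing and amine genes tested, 5 were called higher with IL-1 and none lower, namely Pcsk1n (2.31), Vgf (2.10) and Snap25 (2.09), then Ptprn (1.71) and Cpe (1.62, log2 fold changes in limma). With IL-17A Snap25 (2.35) and Pcsk1n (2.13) were called higher and Ddc (-1.10) lower of 19. Vgf and Pcsk1n encode granin-like proteins, Cpe a carboxypeptidase of prohormone maturation, and Snap25 a protein of vesicle fusion. Of 4 other peptides tested, Ppy (4.41, adjusted p = 0.00624) and Tac1 (1.84, adjusted p = 0.0113) were called higher with IL-1 and Tac1 with IL-17A (2.54, adjusted p = 0.0231, limma). Ppy, which encodes pancreatic polypeptide of the same family as Pyy, was 0, 0 and 2.54 normalized counts in controls and 16.9, 25.9 and 70.2 with IL-1, so its fold rests on controls near 0. Tac1, the precursor of substance P and a product of enterochromaffin cells, was 31.9, 40.0 and 30.5 in controls and 219, 88.7 and 97.6 normalized counts with IL-1.

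Among the transcription factors of the lineage that were tested, Rfx3 (-2.12, adjusted p = 0.00342) and Foxa2 (-1.25, adjusted p = 0.0129, limma) were called lower with IL-1. With IL-17A Isl1 was higher (1.82, adjusted p = 0.0497) and Foxa2 lower (-1.19, adjusted p = 0.0421, limma). Neurog3, which starts endocrine commitment in the crypt, was not called, at 93.1, 75.3 and 61.9 against 47.0, 46.8 and 4.39 normalized counts with IL-1. Of 5 sensors tested, the potassium channel subunits Abcc8 (1.76, adjusted p = 0.0114) and Kcnj11 (1.70, adjusted p = 0.0332) were called higher with IL-1 and Abcc8 with IL-17A (1.91, adjusted p = 0.0485, limma).

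Markers of other cell types moved in the same organoid libraries. All 5 stem cell markers, Lgr5, Smoc2, Axin2, Ascl2 and Lrig1, were called lower with IL-1 at 72 h (log2 fold changes -4.89 to -1.45, limma), and none of 4 tested with IL-17A. Their summed level was 558 to 618 CPM in controls and 64.7 to 135 CPM with IL-1. With IL-17A Lgr5 had no row, and the other 4 markers summed to 63.7 to 299 CPM. Lgr5 reached 173 CPM in organoid libraries with a row, so the IL-17A sum cannot be compared directly with that of the controls. Of 8 colonocyte markers Aqp8 (4.11), Car4 (2.52), Krt20 (1.94) and Slc26a3 (1.78) were called higher with IL-1 and none with IL-17A, the summed level being 1998 to 4665 CPM in controls, 4969 to 11349 CPM with IL-1 and 3089 to 9946 CPM with IL-17A. Of the goblet markers Retnlb (-4.88) and of the tuft cell markers Dclk1 (-2.94) were called lower with IL-1. The 10 enteroendocrine genes summed to 229 to 350 CPM in controls, 365 to 744 CPM with IL-1 and 387 to 628 CPM with IL-17A. The part of the other cells in the result was not tested.

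IL-1 and IL-17A were also set against each other on log2(CPM + 0.1). None of 8 genes was called at 12 h (0% of all genes) or at 72 h (0.0151% of all genes), in limma, at the unadjusted p (0.219% and 0.597% of all genes), in edgeR or in DESeq2. At 72 h Cck was the one gene without overlap, lower with IL-1 by -0.49 on the log2 scale (SE 0.28, adjusted p = 0.999, limma; 1.29% of all genes were lower in this way), which does not show that the 2 cytokines act alike on the others. Whether the response differed between 72 h and 12 h was tested as an interaction, in which the median over all genes was shifted by -0.27 for IL-1 and -0.25 for IL-17A. None of 8 genes was called for IL-1 (10.1% of all genes) or for IL-17A (0.416% of all genes) in limma. At an unadjusted p under 0.05 there were 1 and 2 (22.5% and 17.6% of all genes), with edgeR 1 and 1 (10.1% and 1.12%), and with DESeq2 2 and 2 (17.2% and 8.63%). Tph1 had a difference of 2.0 for IL-1 (SE 0.79, adjusted p = 0.0866) and 2.50 for IL-17A (SE 0.79, adjusted p = 0.0817), and Cck 0.93 (SE 0.39, adjusted p = 0.101) and 1.65 (SE 0.39, adjusted p = 0.0602, limma), all positive before and after the shift. These tests use the control libraries that both times share.

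As a description of likeness, the genes outside the lists that ran closest to the mean standardized level of 8 of the 10 genes over the 12 Muc2-mCherry+ libraries were Txnrd2 (Pearson r 0.92), Kcnq1 (0.89), Slc51b (0.89), Hadh (0.88) and Acads (0.88) of 11474 genes ranked. Among the genes themselves Chga and Chgb ran together (r = 0.98), as did Chga and Tph1 (0.95), while Chga with Pyy (0.15) and with Insl5 (-0.41) did not. These points share 3 genotypes and 2 segments. Over the 16 distinct organoid libraries the closest were Ston1, Mtss1, Sez6l2, Mink1 and Ddr1 (all 0.96) of 11376 genes, where the points share the treatments and times.

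In the Gli1-tdTomato+ stromal cells, which should lack these genes, the 10 genes together held 1.37 to 25.5 CPM, and the tables had rows for 6 to 8 of them. Over 6 stromal markers these libraries held 40693 to 57398 CPM. Gli1, whose promoter marks the sorted cells, was 642 and 1597 normalized counts in proximal GWTT, 1481 and 23.9 in GS4T and, in its own comparison, 1292 and 34.7 in GA3T libraries, so that replicate 2 of both proximal knockouts was low. Pyy was 0 and 2.05 normalized counts in proximal GWTT and 41.5 and 65.8 in GS4T libraries, a call of 4.93 (SE 0.84, adjusted p = 0.0238, limma), and Pyy alone of 6 genes was called there (5.25% of all genes higher, 9.61% in all). In the distal colon 2 of 3 were called (7.88% of all genes higher, 14% in all), Pyy at 0 and 7.74 against 33.7 and 86.9 (4.22, adjusted p = 0.0495) and Chgb at 5.87 and 15.5 against 59.4 and 58.7 normalized counts (2.50, adjusted p = 0.0336, limma). Proximal Pyy was not called without GS4T replicate 1 (adjusted p = 0.143) or replicate 2 (4.61, adjusted p = 0.164, limma). Distal Pyy and Chgb were not called without GWTT replicate 1, GS4T replicate 1 or GS4T replicate 2 (adjusted p = 0.103 to 0.183, limma). None was called in GA3T cells, of 6 in the proximal (0.358% of all genes) and of 3 in the distal colon (0% of all genes), in limma, edgeR or DESeq2, with 2 and 3 at an unadjusted p under 0.05 (9.46% and 7.77% of all genes). Epithelial markers moved in the same libraries, the 10 goblet markers being at 472 to 1078 CPM in proximal GS4T against 4.83 to 383 CPM in GWTT, and 303 to 892 against 142 to 291 CPM in the distal colon. No goblet marker lacked a row there, and the part of epithelial RNA in these values was not tested.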

How the data were processed

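Gene tables were analysed for 42 RNA-seq libraries of mouse colon. The values are a normalized signal: per the study's methods the authors mapped reads uniquely to mm10 with STAR 2.5.3 and deposited counts divided by DESeq2 1.28.1 size factors, computed within each table. The counting program and strand setting are not given in the sources used here. Dividing each column by its smallest step gave whole reads (100% of values, tolerance 0.1), from which depth and CPM were taken. Their totals were 15647603 to 20783127 in Muc2-mCherry+ cells, 14222902 to 23686940 in stromal cells and 14815170 to 17665812 in organoids; intervals and the floor of 3 reads for a count of 0 cover counting error only. Left out were rows that name no gene, 4 in each GS4M2 table, which held 20.9% to 28.2% of the recovered reads of a library.

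Within each table limma 3.58.1 (R 4.3.3, trend) was fitted to log2(value + 1) of genes with a mean of at least 10, and between tables to log2(CPM + 0.1) of genes with a row in every table and a mean of at least 0.5 CPM, so a fold change understates that of a low gene. Calls needed a two-sided p under 0.05 after Benjamini-Hochberg adjustment over all genes tested and a log2 fold change of 1 or more in either direction. The members, the lists and the tests were chosen with earlier results of these data known. Named were the 10 genes in every table, list genes that were called, the 3 most abundant genes of each list in the Muc2-mCherry+ libraries, and the 5 genes most alike over the 12 sorted and, since 2 of 18 organoid libraries are repeats, 16 organoid libraries. The numbers pair proximal with distal libraries (correlation of deviations 0.65, 0.28 and 0.52 in GWTM2, GA3M2 and GS4M2) and IL-1 with IL-17A libraries (0.48 to 0.91), each over 0.1, and in the other comparisons they are shared in part. One gene that this rule names is not reported here. Positions are those of GENCODE on GRCm38 and RefSeq. Alternatives were other pseudocounts and filters, upper-quartile or TMM scaling, unadjusted p, edgeR 4.0.16 and DESeq2 1.42.0 on recovered reads, the replicate block and each library left out; added after seeing the data were the unadjusted p of DESeq2, the 16 distinct organoid libraries and averaging of near-identical libraries. The fits were tested on simulated data for 23 comparisons, where 69.9% to 99.2% of genes changed by 2 or more on the log2 scale were called.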

Additional observations from a re-analysis of the deposited data

Results flagged for a closer look

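The difference of Pyy between GS4M2 and GWTM2 cells had opposite signs in the 2 colon segments, both GS4M2 libraries being below both controls in the proximal colon (-0.49 on the log2 scale) and above both in the distal colon (1.16). The test of the difference itself, an interaction in limma, gave -1.66 (SE 0.65, adjusted p = 0.998), which did not pass. The proximal sign rests on the deposited column names, under which the GWTM2 reads equal those of the proximal GA3M2 table in 13134 of 13134 genes. Groups of 2 and 3 libraries are too small for the check of a single library far from the others.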

How the results depend on the processing

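For the 74 pairs of a gene and a comparison that were called, whose groups did not overlap, or that passed an unadjusted p in an interaction or the replicate block, 1112 alternative values were computed, of which 937 kept direction and side of the threshold, 62 fell below it, 113 rose past it and 0 changed sign. This choice favours a stable sign. Of 1654 alternative values for the other 104 pairs, 140 changed sign, in 61 pairs. The cause of the changes was not tested.

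Numbers of genes called moved as follows from the main values. With the unadjusted p they were 3 and 2 in GS4M2 (proximal, distal), 2 and 2 in GA3M2, 5 with IL-17A at 72 h, 2 in proximal GS4T, 2 and 3 in GA3T, 6 between GWTM2 segments, 6 in the GS4M2 interaction, 5 and 2 between the knockouts, and 1 and 2 in the interactions of time with IL-1 and IL-17A. DESeq2 called 1 in proximal GS4M2, 1 in proximal GA3M2, 5 with IL-17A at 72 h, 2 in proximal GS4T, 6 between GWTM2 segments, 4 between the knockouts in the proximal colon, and 2 and 2 in the time interactions. By its unadjusted p it called 2 and 2 in GS4M2, 2 and 2 in GA3M2, 5 with IL-17A at 72 h, 2 in proximal GS4T, 1 and 2 in GA3T, 6 between GWTM2 segments, 5 in the GS4M2 interaction, 5 and 2 between the knockouts, and 5 and 3 in the time interactions. edgeR called 1 in distal GS4T and 1 in each time interaction. A pseudocount of 0.1 gave 0 and 1 in GS4T, a mean of at least 50 gave 0 and 0, upper-quartile scaling gave 1 in distal GS4T, and TMM scaling 1 in the interaction of time with IL-17A. The 16 distinct organoid libraries gave 1 and 2 in the time interactions, and averaging near-identical libraries gave 3 with IL-1 and 0 with IL-17A at 72 h.

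With the replicate number as a block 1 gene was called in proximal GA3M2 (Sct, adjusted p = 0.0103, limma), 1 with IL-1 and 1 with IL-17A at 12 h (Tph1 in both), 2 with IL-1 and 0 with IL-17A at 72 h, 2 between the knockouts in the proximal colon and 2 in the interaction of time with IL-17A. It left 7 over the 3 genotypes, gave 4 between GWTM2 segments, and moved no other count. Same-numbered GWTM2 and GS4M2 libraries of a segment deviated with correlations of -0.02 and 0.02, GWTM2 and GA3M2 libraries with 0.39 and 0.17, controls and cytokines with 0.68 to 0.72 at 12 h and -0.14 to 0.21 at 72 h.

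Leaving out 1 library gave 0 to 1 in proximal GS4M2 and in distal GA3M2, 2 to 7 with IL-1 and 0 to 5 with IL-17A at 72 h, 0 to 3 in proximal GS4T, 0 to 2 in distal GS4T, 0 to 3 between GWTM2 segments, 5 to 7 over the 3 genotypes, and 0 to 1 and 0 to 2 in the time interactions. Where it left 1 library in a group, that library was taken to vary like the others. Depth limits Cck and Sst in distal GWTM2 cells, which rest on a few reads per library.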

Other observations

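The summed level of the 10 enteroendocrine genes was 82.4 to 116 CPM in proximal GWTM2, 29.8 to 64.6 CPM in proximal GS4M2 and 99.3 to 106 CPM in proximal GA3M2 libraries. In the distal libraries of the same genotypes it was 19.6 to 24.8, 28.2 to 41.0 and 24.9 to 40.8 CPM. Summed over 12 h libraries of organoids it was 229 to 490 CPM in controls, 224 to 500 CPM with IL-1 and 217 to 533 CPM with IL-17A, so that the 3 groups covered nearly the same range.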
